A study of Mus musculus with 6 samples.

Results

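The machinery that docks and fuses secretory vesicles was examined through 40 genes in the carotid body (CB) and the adrenal medulla (AM) of adult mice. The members were all rows of the deposited expression table whose symbol was on a list of synaptotagmins, SNAREs, priming factors, Rab3 and Rab27 GTPases with their effectors, and vesicle membrane proteins; 40 of 40 were found among 26728 entries. The rule picks genes by symbol alone and uses no measured value, although earlier results of these data were known when the list was drawn up. The carotid body is the small chemosensory organ at the carotid bifurcation whose glomus cells release transmitter onto sensory nerve endings, and the adrenal medulla is the core of the adrenal gland whose chromaffin cells release catecholamines into the blood. Each tissue is represented by 3 libraries from untreated adult mice of the C57/BL6 strain, and the labels name no genetic change and no treatment in either group. Each library is 1 pool of tissue from 10 mice, 18 carotid bodies or 10 adrenal medullas, so n counts pools. Levels are RPKM, reads scaled by mRNA length and by library size, as the authors deposited them, and are used here to set levels of different genes side by side, within the limit that the RNA was amplified before sequencing, which can lower the read density of long mRNAs.

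Regulated secretion joins a vesicle to the plasma membrane through the SNARE proteins, in which a VAMP on the vesicle zips up with a syntaxin and a SNAP25-type protein on the membrane. Rab GTPases and their effectors bring the vesicle to the membrane, MUNC13 and CAPS proteins prime it, complexins hold and promote the assembled complex, and synaptotagmins and DOC2 proteins sense the calcium that triggers fusion. NSF and the SNAP adaptors then take the spent complex apart. Neuroendocrine cells use this machinery for large dense-core granules and also hold small synaptic-like vesicles.

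Libraries held 13266225 to 16445925 reads. At this depth 1 read on an mRNA of 2 kb is worth 0.0304 to 0.0377 RPKM. Both tissues are mixtures of cells, and in bulk RNA fewer cells of a type and less RNA per cell cannot be told apart. The summed level of 8 catecholamine-cell markers (Th, Ddc, Dbh, Chga, Chgb, Scg2, Slc18a1 and Slc18a2) was 2529.8 to 3388 RPKM in the CB pools and 14602 to 24659 in the AM pools, with 1 member called higher and 6 lower in the CB. Summed adrenal cortex markers were at 29.9 to 115.5 against 9043 to 12278 RPKM, with 8 of 8 called lower in the CB, so adrenal cortex RNA was present in the AM libraries. Pnmt, the adrenaline-synthesising enzyme, was at 1.81 to 16.8 RPKM in the CB pools and 2708 to 6042 in the AM pools. Of 12 neuron and axon markers, 4 were called higher and 2 lower in the CB, and 6 were not called. Their sums were 934 to 1152 against 388 to 610 RPKM. Gap43 alone was at 337 to 435 against 4.99 to 6.504 RPKM, so the difference between the sums rests largely on that 1 gene. All 9 glia, 6 smooth muscle and pericyte, 6 fibroblast and 6 mast cell markers were called higher in the CB. No defining marker of these lists was at 0 in every pool of a tissue. Of the endothelial markers 3 of 6 were called higher, and of the macrophage markers 1 of 4. CB pool 2 stood apart in fat markers, which summed to 3636 RPKM. The sum was 2222 RPKM in AM pool 3 and 229 to 880 in the other 4 pools. Of the 2222, Cfd alone made up 1641. Adipoq was at 79.8 and Fabp4 at 486 RPKM in AM pool 3, against 68.0 and 359 in AM pool 1. The Y-linked gene Ddx3y was at 0.0786 RPKM in AM pool 3 against 11.6 to 33.7 in the rest. Y-linked Eif2s3y was at 0 RPKM there against 12.1 to 31.7. Xist, expressed from the inactive X chromosome of females, was at 4.80 RPKM in AM pool 3 against 0.176 to 0.992 in the rest. AM pool 3 thus had the RNA pattern of female mice, while the rest held male RNA. The part of sex in the results below was not tested. Calls of members that change without CB pool 2 and AM pool 3 are given with and without them. The part of other cell types in the results below was not tested.

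Of the 40 members, 37 reached 1 RPKM in at least 3 libraries and were tested with limma on log2(RPKM + 1) together with all 13357 such genes. Complexins, the synaptotagmin gene Syt9 and the priming factor gene Unc13b were higher in the CB, and Rph3a, Cadps2 and Ptprn2 were lower there. The other 30 were not called; a call needs a p under 0.05 after Benjamini-Hochberg adjustment. The 4 members called higher compare with 14.2% of all genes tested, and the 3 called lower compare with 7.73%. In all, 18.9% of the tested members were called against 21.9% of all genes, so the members were not called more often than genes at large. Their median log2 difference (carotid body minus adrenal medulla, as throughout) was 0.01 against 0.02 over all genes, with 18 of 37 below 0. Cplx1 was the 1 member called over 2-fold apart by limma's treat, against 3.63% of genes called over 2-fold higher in the CB. The CB pools lay above all AM pools for 11 of the 37 and below them for 3, against 22.3% and 14.7% of all genes. Cadps2 and Rph3a passed the filter only through the adrenal medulla and Rab27b only through the carotid body, so these could not overlap. Without them the counts were 10 and 1 of 34. The shares of all genes keep such genes in, so they do not compare directly with these counts.

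In deviations from tissue means, same-numbered pools of the 2 tissues correlated at 0.259, 0.128 and 0.473 across genes. CB pool 2 correlated more with AM pool 1 (0.291) than with AM pool 2 (0.128). Such deviations cancel out within a tissue, so these values constrain one another and cannot show that pools share mice. Ddx3y was at 11.6 RPKM in CB pool 3 and 0.0786 in AM pool 3. The fit was repeated with the pool number as a block, as an alternative only. The block fit called 11 members, 6 higher and 5 lower, against 16.9% and 10.2% of all genes. The members it added were Vamp3 and Syn1 (higher) and Cadps and Rab3b (lower). Without CB pool 2 and AM pool 3, limma called 5 members higher (Cplx1, Cplx2, Syt9, Syn1 and Syp) and 6 lower (Rph3a, Cadps2, Ptprn2, Cadps, Syt4 and Snap25), against 14.4% and 15.5% of all genes. The share of members called lower was then near that of all genes. The members called lower numbered 5 without AM pool 1, with Rab3b and Ptprn added, against 6.44% of all genes.

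**Figure D1:**
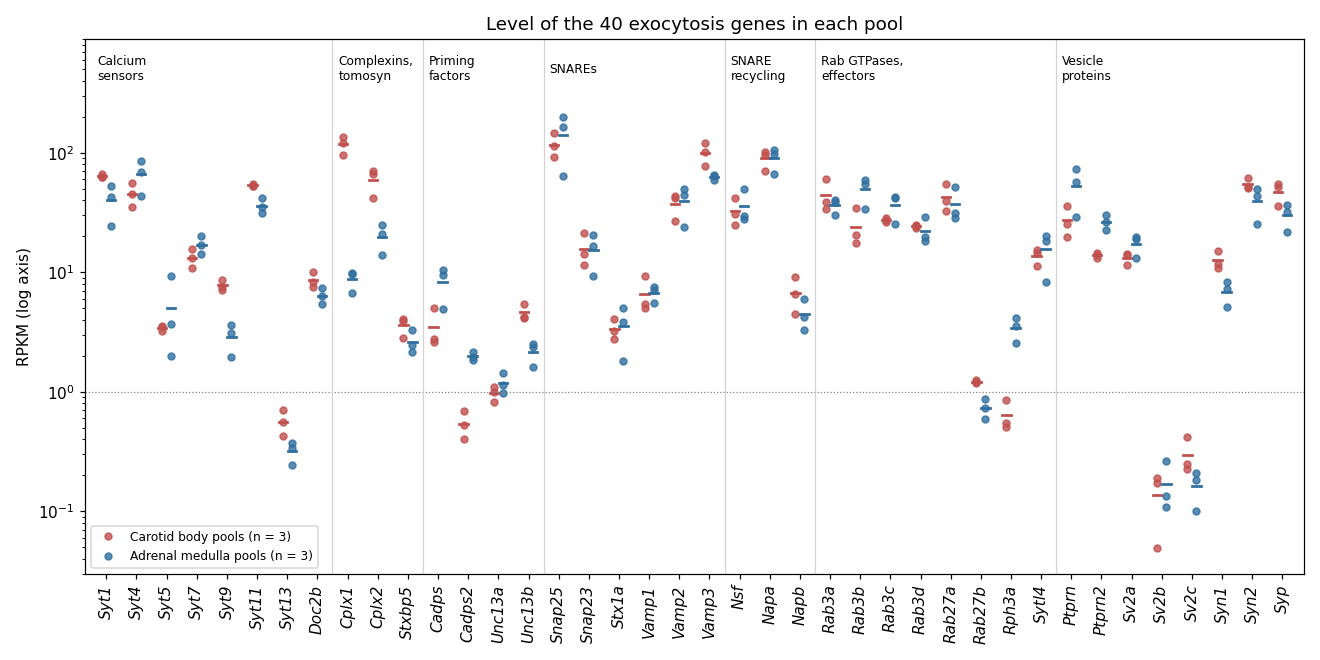
Level of each of the 40 members (RPKM, log axis) in the 3 CB pools (red points) and the 3 AM pools (blue points), by role, with bars at the mean of each tissue. The dotted line marks 1 RPKM, the filter. Cplx1 stands at 95.3 to 136 RPKM in the CB against 6.71 to 9.92 in the AM, while Snap25, Vamp2 and Napa overlap between the tissues.

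Complexins are small cytosolic proteins that bind the assembled SNARE complex, hold vesicles in a ready state and speed calcium-triggered fusion. Cplx1 was at 95.3, 121 and 136 RPKM in CB pools 1, 2 and 3 and at 6.71, 9.92 and 9.65 in AM pools 1, 2 and 3. All CB pools were high and all AM pools low, with no overlap. The ratio of the means was 13.4, and the log2 difference 3.61 ± 0.24 (SE; limma adjusted p = 2.75e-05; n = 3 pools each). These values rest on 200 to 4710 reads per library. It was called in 14 of 14 alternative analyses. The axon marker Gap43 was also higher in the CB, at 337 to 435 RPKM against 4.99 to 6.504, and its part in the complexin levels was not tested. Among the 40 members Cplx1 ranked 1st by mean level in the CB and 23rd in the AM, though in the CB its range overlapped those of Snap25, Vamp3 and Napa.

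Cplx2, the close relative of Cplx1, was at 41.9, 66.4 and 70.2 RPKM in CB pools 1 to 3 and at 14, 24.7 and 21.1 in AM pools 1 to 3. The tissues did not overlap, and the log2 difference was 1.53 ± 0.29 (SE; limma adjusted p = 0.00581), again called in 14 of 14 alternatives. With both genes higher, the complexin total was 137, 188 and 207 RPKM in the CB pools and 20.7, 34.6 and 30.8 in the AM pools.

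The balance of the complexins differed between the pools of the tissues. Cplx1 made up 69.5, 64.7 and 66.02% of the summed complexin RPKM in the CB pools and 32.4, 28.6 and 31.4% in the AM pools, a difference of means of 35.9 percentage points. By RPKM, Cplx1 was the higher of the pair in 3 of 3 CB pools and Cplx2 in 3 of 3 AM pools. The lead in the CB rests on the division by mRNA length. On undivided reads Cplx1 held 50.6, 45.1 and 46.6% in the CB pools, so that Cplx2 led in CB pools 2 and 3, and 17.7, 15.3 and 17.1% in the AM pools. The shares did not overlap on either scale. An exact two-sided permutation test of 3 pools against 3 cannot go below p = 0.1, which is the value reached here. Over the 25 shares compared in 12 families, the smallest adjusted p was 0.278.

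The 250 bases before the annotated start of Cplx1 and Cplx2 are shown because both complexin genes were higher in the CB, together with those of Syt9, the other strongly higher member, and of Cadps2, a member that was lower. They come from RefSeq on GRCm38.p6, a later build than the mm9 listed in the submitters' processing notes, and are read 5′ to 3′ on the gene's strand. Capitals mark matches, on either strand, to the core of the hypoxia response element bound by HIF factors (ACGTG or GCGTG), to the cAMP response element (TGACGTCA) or to CAGCACC, part of the RE1 element bound by the neuronal repressor REST.
Cplx1, chr5:108550028-108550277, minus strand: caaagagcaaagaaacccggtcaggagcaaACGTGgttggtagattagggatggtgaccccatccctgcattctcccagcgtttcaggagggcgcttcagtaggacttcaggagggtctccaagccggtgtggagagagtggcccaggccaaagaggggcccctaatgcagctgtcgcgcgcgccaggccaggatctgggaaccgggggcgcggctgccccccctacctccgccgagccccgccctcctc
Cplx2, chr13:54302306-54302555, plus strand: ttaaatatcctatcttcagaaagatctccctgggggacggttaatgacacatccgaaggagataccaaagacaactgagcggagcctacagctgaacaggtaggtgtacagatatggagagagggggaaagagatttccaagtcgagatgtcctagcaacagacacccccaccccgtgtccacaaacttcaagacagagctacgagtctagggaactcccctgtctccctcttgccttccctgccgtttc
Syt9, chr7:107370540-107370789, plus strand: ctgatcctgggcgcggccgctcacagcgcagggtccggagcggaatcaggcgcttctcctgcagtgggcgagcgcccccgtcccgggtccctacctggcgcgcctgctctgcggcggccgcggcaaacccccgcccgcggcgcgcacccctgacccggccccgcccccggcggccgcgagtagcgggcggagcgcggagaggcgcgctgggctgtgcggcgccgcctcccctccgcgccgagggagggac
Cadps2, chr6:23839422-23839671, minus strand: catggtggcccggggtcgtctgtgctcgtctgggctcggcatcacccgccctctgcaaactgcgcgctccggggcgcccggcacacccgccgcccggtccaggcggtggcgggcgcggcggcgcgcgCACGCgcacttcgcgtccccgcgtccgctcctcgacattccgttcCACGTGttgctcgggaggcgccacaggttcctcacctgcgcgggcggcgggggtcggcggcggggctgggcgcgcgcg

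In these 4 windows the hypoxia response core was found 1 time for Cplx1 and 3 times for Cadps2, with matches that overlap one another in Cadps2, and none of the 3 motifs was found for Cplx2 or Syt9. Such a core occurred in 38.6% of all 32851 promoter windows of this length, CAGCACC in 5.73% and the cAMP response element in 1.55%. A match is a description of the letters only.

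Stxbp5 encodes tomosyn, which occupies syntaxin in place of a VAMP and so restrains fusion. Its CB pools were at 4.03, 3.95 and 2.81 RPKM and its AM pools at 3.27, 2.49 and 2.15. The tissues overlapped, and it was not called (log2 0.34, 95% interval -0.15 to 0.83).

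**Figure D2:**
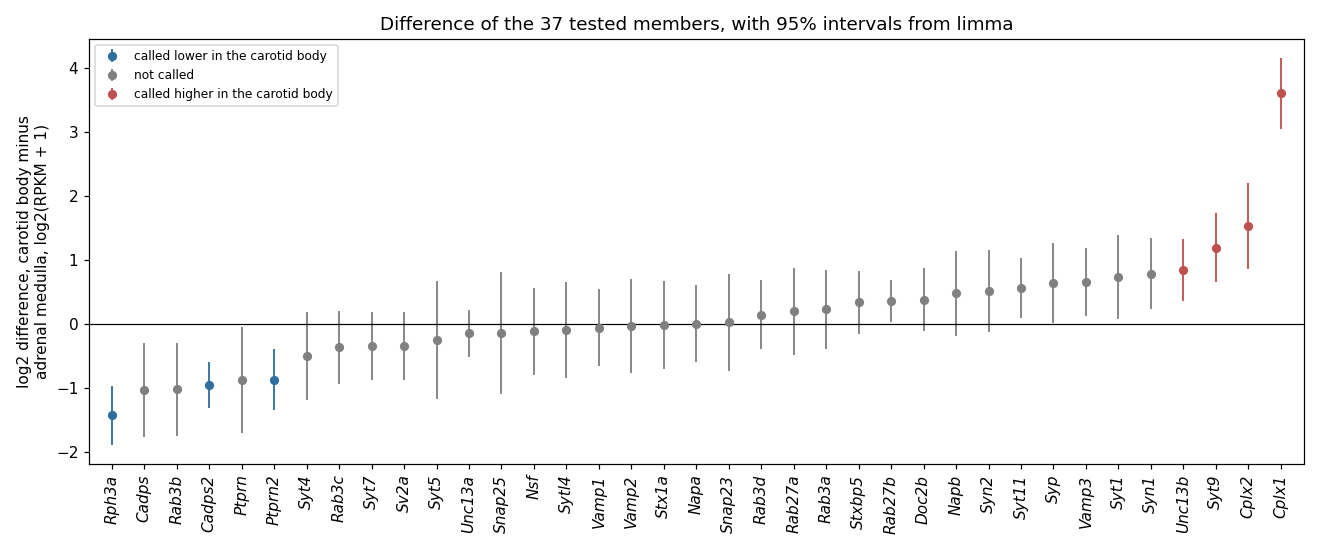
Log2 difference, carotid body minus adrenal medulla, on the log2(RPKM + 1) scale for the 37 tested members in rising order, with 95% intervals from limma; colours give the call at an adjusted p under 0.05. Cplx1 stands alone at 3.61, followed by Cplx2, Syt9 and Unc13b, and Rph3a has the lowest value at -1.43.

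Among the calcium sensors, Syt9 was called, the 1 such gene of the 7 synaptotagmins among the members. Its product is a fast, low-affinity sensor on secretory vesicles of neuroendocrine cells and some neurons. Syt9 was at 7.098, 8.65 and 7.57 RPKM in CB pools 1 to 3 and at 3.65, 3.08 and 1.94 in AM pools 1 to 3. The carotid body was higher without overlap, by 1.19 ± 0.24 on the log2 scale (limma adjusted p = 0.00667), in 14 of 14 alternatives. Even so it supplied a small part of the family, 4.12 ± 0.265% (SD over pools) of the synaptotagmin RPKM in the CB against 1.72 ± 0.328% in the AM.

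Syt1, the main fast calcium sensor of synaptic vesicles, was at 66.6, 63.1 and 63.2 RPKM in the CB pools and 52.6, 43.04 and 24.6 in the AM pools. The pools of the tissues did not overlap, with AM pool 3 the lowest, but the difference was not called (log2 0.73 ± 0.29, limma adjusted p = 0.116). Syt4, which does not bind calcium through its first C2 domain and sits on dense-core granules, was at 35.2, 55.9 and 45.01 against 69.7, 85.7 and 43.2 RPKM. Its pools overlapped and it was not called with all pools (log2 -0.50). Without CB pool 2 and AM pool 3 it was called lower in the CB (log2 -0.94, limma adjusted p = 0.0278).

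The leading synaptotagmin differed between the tissues. Syt1 held 36.8, 32.2 and 33.6% of the synaptotagmin RPKM in CB pools 1 to 3 and 30.2, 21.1 and 19.5% in AM pools 1 to 3. Syt4 held 19.5, 28.6 and 23.9% and 40.04, 42.03 and 34.4%. Neither share overlapped between the tissues (exact permutation p = 0.1 each, the smallest possible). Syt1 was the most abundant of the 7 synaptotagmins in all 3 CB pools and Syt4 in all 3 AM pools. The summed level of the family was 181, 196 and 188 RPKM in the CB and 174, 204 and 126 in the AM, with overlap.

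Syt11, a synaptotagmin that does not bind calcium, was at 52.4, 53.1 and 55.3 RPKM in the CB and 31.5, 42.2 and 35.04 in the AM. Its mean was above that of Syt4 in the CB (53.6 against 45.4 RPKM) and below that of Syt1 in the AM (36.3 against 40.1). Its groups did not overlap, but it was not called (limma adjusted p = 0.0924) except with no filter on low values (0.0489). Syt7, a slow high-affinity sensor of granule fusion in chromaffin cells, was at 15.8, 10.8 and 13.1 against 14.2, 20.3 and 16.9 RPKM. Its pools overlapped, and the 95% interval of its log2 difference was -0.88 to 0.19. Syt5 was at 3.24, 3.504 and 3.57 against 1.98, 9.37 and 3.72 RPKM, with AM pool 2 the highest. Syt13 stayed under 1 RPKM in every pool and was not tested. Doc2b, a soluble high-affinity calcium sensor, was at 7.55, 8.27 and 10.1 against 5.47, 7.37 and 6.34 RPKM, without overlap but not called (log2 0.38, limma adjusted p = 0.279).

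Of the 4 priming factor genes, Unc13b was called higher and Cadps2 lower, while Unc13a and Cadps were not called. Unc13b encodes MUNC13-2, which opens syntaxin and readies vesicles for release. Its levels were 4.18, 5.49 and 4.27 RPKM in CB pools 1 to 3 and 2.52, 2.36 and 1.61 in AM pools 1 to 3. Every CB pool was above every AM pool, and the gene was called higher (log2 0.84 ± 0.21, limma adjusted p = 0.0215). The call was lost without CB pool 2 (adjusted p = 0.0764), without CB pool 3 (0.0570), without AM pool 2 (0.0621), without CB pool 2 and AM pool 3 together (0.0562) and with no filter on low values (0.0533). Its relative Unc13a, the main MUNC13 of brain synapses, was low in both tissues, at 0.8202, 1.105 and 0.998 against 0.979, 1.45 and 1.14 RPKM, and was not called. Unc13b led this pair in 6 of 6 pools and held 83.6, 83.2 and 81.1% of the sum in the CB pools and 72.04, 62.01 and 58.5% in the AM pools, with no overlap (exact permutation p = 0.1, the smallest possible).

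CAPS proteins, encoded by Cadps and Cadps2, prime dense-core granules. Cadps2 was at 0.527, 0.698 and 0.401 RPKM in the CB pools and 2.14, 1.97 and 1.85 in the AM pools. It passed the filter only through the AM, so that the groups could not overlap. It was called lower in the CB (log2 -0.96 ± 0.16, limma adjusted p = 0.00241, and 0.00725 with no filter), on 31 to 151 reads per library. Cadps was at 2.62, 5.01 and 2.78 against 9.43, 10.4 and 4.91 RPKM. CB pool 2 just exceeded AM pool 3, and the gene missed the threshold (log2 -1.03, limma adjusted p = 0.0515). It was called with the block (adjusted p = 0.0166), without CB pool 2 (0.0368), without AM pool 3 (0.00809) and with both of these left out (log2 -1.56, adjusted p = 0.00334). Median-ratio scaling, quantile scaling and limma's voom on recovered reads also called it, which makes 7 of 14 alternatives. Beside these values, 6 of 8 catecholamine-cell markers were lower in the CB, and their part in the CAPS levels was not tested. The CAPS sum was 3.14, 5.71 and 3.18 RPKM in the CB pools and 11.6, 12.4 and 6.75 in the AM pools. Cadps led in 6 of 6 pools, and its share overlapped between the tissues.

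None of the 6 SNARE genes among the members was called with all pools and no block. Snap25, the plasma membrane SNARE of neurons and neuroendocrine cells, was at 91.8, 147 and 114 RPKM in the CB pools and 163, 198 and 64.02 in the AM pools. AM pool 3 was the lowest of the 6 and pool 2 the highest. The log2 difference was -0.14 with a 95% interval of -1.10 to 0.81, which does not show that the levels are equal. Without CB pool 2 and AM pool 3, Snap25 was called lower in the CB (log2 -0.81, limma adjusted p = 0.0412). Snap23, the widely expressed form, was at 14.1, 21.2 and 11.4 against 20.5, 16.7 and 9.33 RPKM. Snap25 held 86.7% to 92.2% of the sum of the pair in the 6 pools.

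Stx1a, the neuronal plasma membrane syntaxin, was low at 2.76, 3.203 and 4.09 against 1.797, 3.86 and 5.08 RPKM and overlapped. Among the vesicle SNAREs, Vamp3 (cellubrevin, found in most cell types) was the most abundant in 6 of 6 pools. It was at 121, 102 and 78.4 RPKM in the CB pools and 65.3, 63.6 and 58.9 in the AM pools. The carotid body was higher without overlap, which was not called without the block (log2 0.65, limma adjusted p = 0.0807) and was called with it (adjusted p = 0.0483). Vamp2, the main synaptic vesicle SNARE, was at 27.04, 41.7 and 43.2 against 23.8, 49.7 and 44.2 RPKM and overlapped (95% interval -0.77 to 0.71). Vamp1 was at 5.07 to 9.24 RPKM over all 6 pools.

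NSF, the ATPase that takes SNARE complexes apart, and its adaptors were not called. Napa, the adaptor alpha-SNAP, was at 70.96, 96.6 and 102 RPKM in the CB pools and 66.9, 97.7 and 105 in the AM pools. Its log2 difference was 0.01, with a 95% interval of -0.59 to 0.61. It held 88.6% to 97.0% of the sum with Napb, the neuronal beta-SNAP, in the 6 pools. Napb ranged from 3.28 to 9.14 RPKM and Nsf from 25.0 to 49.6 RPKM, each with overlap.

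Rab3 GTPases tether and ready vesicles, and no Rab3 gene was called with all pools, no block and no further scaling. Rab3b was at 17.7, 20.4 and 34.5 RPKM in CB pools 1 to 3 and at 34.03, 59.3 and 54.9 in AM pools 1 to 3. CB pool 3 just exceeded AM pool 1, and the gene missed the threshold (log2 -1.02, limma adjusted p = 0.0525). It was called lower in the CB with the block (adjusted p = 0.0155), without CB pool 3 (0.0284) and without AM pool 1 (0.0275). Median-ratio and quantile scaling also called it lower, which makes 5 of 14 alternatives. Rab3a, the main Rab3 of brain synapses, was at 38.4, 33.6 and 60.6 against 30.2, 40.4 and 39.1 RPKM, with overlap and no call.

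Within the family, Rab3a held 35.5, 31.8 and 41.1% of the RPKM in CB pools 1 to 3 and 24.2, 24.9 and 26.3% in AM pools 1 to 3. Rab3b held 16.3, 19.3 and 23.4% and 27.3, 36.5 and 36.9%. Neither share overlapped (exact permutation p = 0.1 each, the smallest possible; adjusted p = 0.278). On reads not divided by mRNA length, the Rab3a share differed by 4.82 percentage points in place of 11.0 and did not overlap, while the Rab3b shares did overlap (13.2, 15.4 and 21.2% against 19.3, 28.2 and 32.01%). By RPKM, Rab3a was the most abundant Rab3 in 3 of 3 CB pools, while in the AM Rab3c led in pool 1 and Rab3b in pools 2 and 3. On undivided reads Rab3c, whose mRNA is long (8.5 kb), led in 6 of 6 pools, so the leader did not differ on that scale. Rab3c was at 27.6, 26.6 and 28.7 against 42.1, 43.1 and 25.4 RPKM. Rab3d, a form found in exocrine and mast cells as well, was at 24.5, 25.1 and 23.4 against 18.2, 19.6 and 29.2 RPKM. Both overlapped and were not called.

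Rab27a, a GTPase of dense-core granule docking, was at 39.7, 32.4 and 55.3 RPKM in the CB pools and 31.5, 51.7 and 28.7 in the AM pools, with overlap. Rab27b was low at 1.19, 1.199 and 1.26 against 0.736, 0.863 and 0.593 RPKM and was not called (limma adjusted p = 0.125) except with no filter on low values (0.0467). Rab27a held 96.4% to 98.4% of the sum of the pair.

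Of the Rab effectors, Rph3a was called and Sytl4 was not; 6 of 8 catecholamine-cell markers were also lower in the CB, and their part in the Rph3a levels was not tested. Rph3a encodes rabphilin, which binds Rab3 and Rab27 on vesicles. It was at 0.848, 0.546 and 0.512 RPKM in CB pools 1 to 3 and at 4.19, 2.57 and 3.57 in AM pools 1 to 3. It too passed the filter only through the AM, which fixed that the groups did not overlap. The ratio of means was 5.42 and the log2 difference -1.43 ± 0.20 (limma adjusted p = 0.00108, and 0.0134 with no filter), on 30 to 243 reads per library. Sytl4, which encodes granuphilin, a granule-docking Rab27 effector, was at 14.6, 15.3 and 11.2 against 18.1, 20.2 and 8.32 RPKM with overlap.

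Among vesicle membrane proteins, 1 gene was called. Ptprn and Ptprn2 encode phosphatase-like proteins that span the dense-core granule membrane. Ptprn2 was at 14.6, 13.1 and 13.9 RPKM in the CB pools and 22.5, 26.1 and 30.3 in the AM pools, with no overlap. It was called lower in the CB (log2 -0.87 ± 0.21, limma adjusted p = 0.0166). The call was lost without CB pool 2 (adjusted p = 0.0592), CB pool 3 (0.0623) or AM pool 2 (0.0703). Ptprn was at 25.6, 19.95 and 36.2 against 29.1, 72.9 and 56.6 RPKM, overlapped and was not called (log2 -0.87, adjusted p = 0.135). Without AM pool 1 it was called (log2 -1.25, limma adjusted p = 0.0248). Ptprn led the pair by RPKM in 6 of 6 pools, with a mean share of 65.5 ± 6.11% (SD over pools) in the CB and 65.02 ± 8.63% in the AM.

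Synapsins and synaptophysin mark small synaptic vesicles. Syn1 was at 11.7, 10.9 and 15.1 RPKM in the CB pools and 5.15, 7.27 and 8.31 in the AM pools. The CB was higher without overlap, but just missed the threshold (log2 0.79, limma adjusted p = 0.0501). Syn1 was called in 4 of 14 alternatives, among them the block (adjusted p = 0.0251) and the fit without AM pool 3 (0.0255). Syn2, the more abundant synapsin in 6 of 6 pools, was at 62.2, 51.5 and 50.4 against 49.4, 43.4 and 25.2 RPKM, without overlap but not called (adjusted p = 0.258). Syp, which encodes synaptophysin, was at 54.5, 35.7 and 52.1 against 21.9, 32.1 and 36.9 RPKM. CB pool 2 lay below AM pool 3, and the gene was called higher in the CB only without those 2 pools (log2 0.98, limma adjusted p = 0.0296). CB pools 1 and 3 were the highest for Syp.

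The SV2 glycoproteins are transporter-like proteins of all regulated vesicles, and Sv2a was the form present. It was at 13.9, 14.4 and 11.5 against 13.1, 19.9 and 18.9 RPKM, with overlap and no call. Sv2b and Sv2c stayed under 0.5 RPKM in every pool, on 4 to 26 reads per library, and were not tested. Sv2c was at 0.421, 0.248 and 0.227 against 0.2101, 0.181 and 0.1001 RPKM, the CB pools above the AM pools. Sv2a held 96.6% to 98.9% of the sum. Shares of Sv2a and Sv2c did not overlap between the tissues (exact permutation p = 0.1 each), at levels of Sv2c that rest on 7 to 26 reads.

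**Figure D3:**
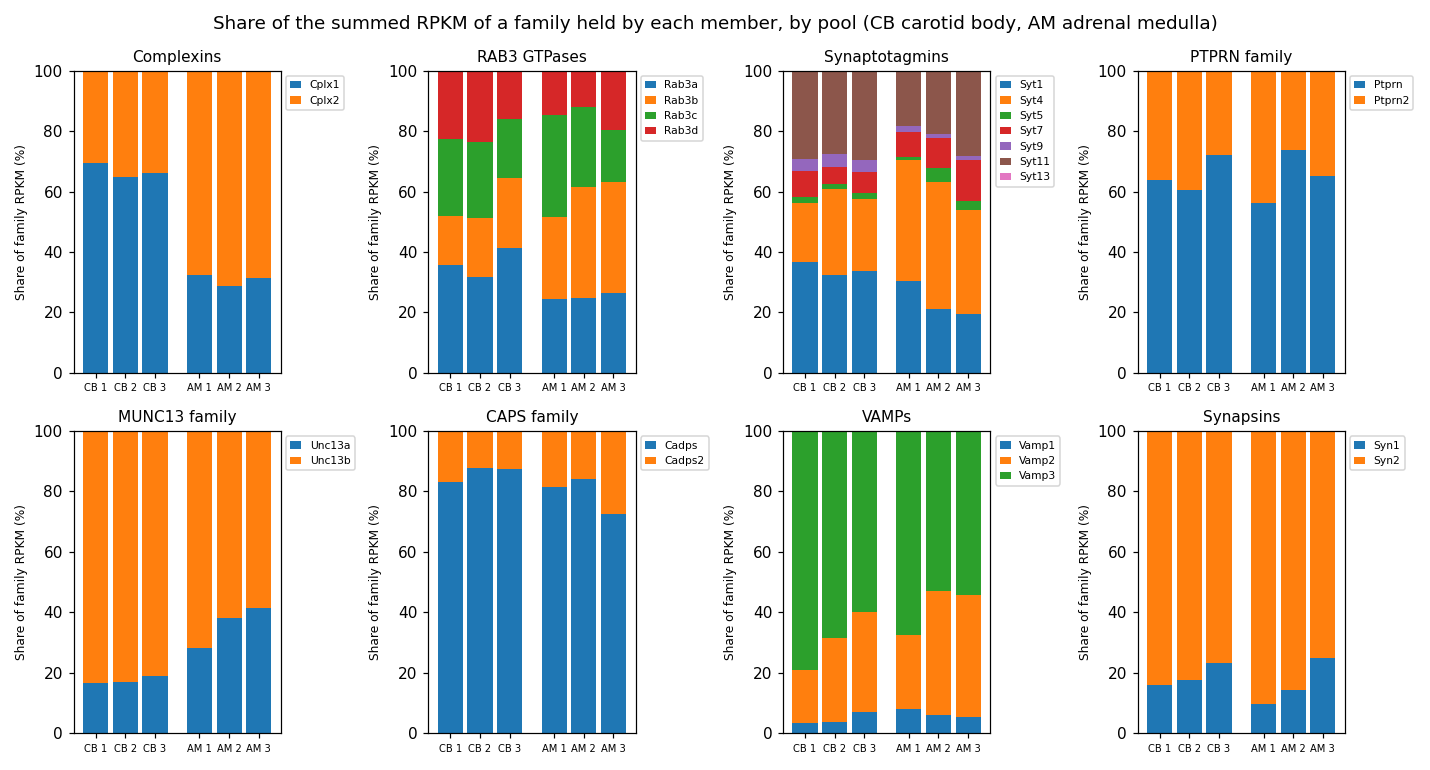
Share of the summed RPKM of a family (percent, stacked to 100) held by each member in every pool, for 8 of the 12 families; CB is carotid body and AM adrenal medulla. Cplx1 fills 64.7% to 69.5% of the complexin bar in the CB and 28.6% to 32.4% in the AM, and Rab3b and Syt4 fill more of their bars in the AM pools.

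Across the 25 shares, the pools of the tissues did not overlap for 9 and overlapped for 16. Those that did not overlap were higher in the CB for Syt1, Syt9, Rab3a, Cplx1 and Sv2c and higher in the AM for Syt4, Rab3b, Sv2a and Unc13a. By RPKM the leading member was the same in all 6 pools for the SNAP25, VAMP, CAPS, Rab27, PTPRN, SV2, MUNC13, SNAP adaptor and synapsin families. By RPKM it differed between the tissues in the complexin, synaptotagmin and Rab3 families. On undivided reads the synaptotagmin leaders were the same as by RPKM, Cplx2 led in every pool but CB pool 1, Rab3c led in every pool, and Ptprn2 led in AM pool 1.

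By mean level the carotid body was led by Cplx1 (118 RPKM), Snap25 (117), Vamp3 (100.5), Napa (89.8) and Syt1 (64.3), and the adrenal medulla by Snap25 (142), Napa (89.96), Syt4 (66.2), Vamp3 (62.6) and Ptprn (52.9). Neighbours in these orders overlapped in their pools, except Napa and Syt1 in the CB. At the low end, Syt13, Sv2b and Sv2c lay under 1 RPKM in all 6 pools, and Cadps2 and Rph3a in all CB pools.

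The rest of the pathway was represented by 71 further exocytosis genes, of which 47 were tested. Of these, 4 were called higher in the CB, 3 were called lower and 40 were not called, or 14.9% called against 21.9% of all genes, with a median log2 difference of -0.11. Rab3il1 and Rab3ip, which encode exchange factors that act on Rab GTPases, were higher. Rab3il1 was at 8.199, 9.78 and 11.2 RPKM in the CB pools and 2.53, 3.38 and 3.22 in the AM pools (log2 1.40, limma adjusted p = 0.00178), and Rab3ip at 24.3, 34.5 and 31.5 against 17.04, 17.2 and 12.9 RPKM (log2 0.89, adjusted p = 0.0242). Syt15, a synaptotagmin that does not bind calcium, was at 4.601, 2.91 and 4.34 against 0.7802, 1.45 and 1.33 RPKM (log2 1.18, adjusted p = 0.00531). Ppfia4, a liprin-alpha scaffold, was higher by 0.69 (adjusted p = 0.0317).

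The 3 genes called lower in the CB were Erc2, Pclo and Stx3. Erc2, which encodes the active-zone protein CAST, was at 0.884, 1.13 and 1.01 RPKM in the CB pools and 5.18, 5.23 and 2.91 in the AM pools. It was lower in every CB pool (log2 -1.41, limma adjusted p = 0.00233). Pclo, the giant scaffold piccolo, was at 1.77, 1.901 and 1.76 against 6.999, 7.46 and 2.83 RPKM (log2 -1.18, adjusted p = 0.0254). The syntaxin gene Stx3 was at 7.73, 6.798 and 6.22 against 18.2, 14.9 and 9.63 RPKM (log2 -0.91, adjusted p = 0.03898). No group overlapped among these 7 genes. Rab3il1, Syt15 and Erc2 were called in 14 of 14 alternatives, while Rab3ip was called in 10, Pclo and Stx3 in 8 each and Ppfia4 in 7. Among the pools left out singly, Rab3ip lost its call without CB pool 2 (adjusted p = 0.0876), CB pool 3 (0.0920) or AM pool 2 (0.0636), and also without CB pool 2 and AM pool 3 together (0.0651). With those 2 left out, Vamp7, Ppfia2 and Napg were called lower as well, names chosen after their values were seen. Pclo and Stx3 each lost theirs without any 1 pool other than AM pool 3, at adjusted p of 0.0629 to 0.0921 for Pclo and 0.0803 to 0.134 for Stx3. Ppfia4 lost its call without any 1 pool other than CB pool 3 and AM pool 3 (0.0605 to 0.111).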

How the data were processed

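RNA of 3 carotid body and 3 adrenal medulla pools was sequenced. The RNA was first amplified as antisense RNA (a MessageAmp kit), per the labels' protocols, which do not say whether strand was kept. Bowtie 0.9.8 and the mouse build mm9 are listed in the submitters' processing notes; the counting step is not given in the sources used here. The authors deposited RPKM values for 23511 entries with an mRNA length. RPKM multiplied by that length was a whole number of reads, within 0.01, for 106276 of 106276 values above 0 (100% whole). Reads of all entries summed to the RPKM denominator in 6 of 6 libraries. The 3217 entries without a length hold raw reads and were left out.

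Genes reaching 1 RPKM in at least 3 libraries were tested on log2(RPKM + 1) by limma 3.58.1 (R 4.3.3), with variance trend and no block, two-sided, adjusted by Benjamini-Hochberg over all 13357 genes (8.47 degrees of freedom). The pseudocount of 1 understates differences of low genes. Treat was run against a log2 difference of 1. The script was tested on simulated data. Family shares are percentages of summed RPKM per library, compared by exact permutation over libraries. Standard errors and intervals are limma's moderated ones, which combine a gene's spread between pools with a variance trend over all genes tested. The amplified reads carry no molecular identifiers, so the read numbers given are not numbers of molecules. Pools are labelled as separate groups, but nothing says how mice were assigned. The p-values therefore rest on the spread between these pools, moderated in the same way for those of limma.

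Same-numbered pools correlated at 0.259, 0.128 and 0.473 in their deviations from tissue means across genes, although CB pool 2 correlated more with AM pool 1 (0.291), so the pool number was used as a block in an alternative. The labels do not say that such pools share mice, and Ddx3y, at 11.6 RPKM in carotid body pool 3 and 0.0786 in adrenal medulla pool 3, differed within the third pair. Alternatives were pseudocounts of 0.1 and 5, no filter, median-ratio and quantile scaling, the block, each library left out, 2 libraries left out together, and limma's voom on recovered reads. Members, gene lists and tests were chosen with earlier results of these data known; 1 marker of the catecholamine-cell list is not reported here and was left out of its sum. Values in every pool were given for members that were called, led their family or had a share without overlap; up to 6 called genes per direction were named from the other exocytosis genes. Of the members, 39 of 40 had an accession in the RefSeq table of GRCm38.p6, 39 under the same symbol, and 31 had a promoter window. Other steps used Python 3.11.15, numpy 2.4.6, pandas 2.3.3 and matplotlib 3.10.9.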

Additional observations from a re-analysis of the deposited data

How the results depend on the processing

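Of the 7 members called with all pools, Cplx1, Cplx2, Syt9, Cadps2 and Rph3a stayed called in the same direction in 14 of 14 alternatives (Cadps2 and Rph3a passed the filter only through the AM), Ptprn2 in 11 and Unc13b in 9. The count of members called lower is given with the share of all genes called lower in the same fit. It was 3 with all pools (7.73%) and 5 under each of median-ratio scaling (9.07%), quantile scaling (10.4%) and the replicate block (10.2%). With CB pool 2 and AM pool 3 both left out it was 6 (15.5%). With 1 library left out it ranged from 2 without AM pool 2 (5.34%) to 5 without AM pool 1 (6.44%). Other exocytosis genes called lower numbered 1 of 71 with no filter on low values, against 3.76% of all genes. Under median-ratio as under quantile scaling there were 5 of 47, against 9.07% and 10.4% of all genes. With CB pool 2 and AM pool 3 both left out there were 6 of 47, against 15.5%. Without 1 library there were 1 to 4, against 5.18% to 10.96%, and those called higher numbered 2 to 4. The replicate block added calls for Vamp3, Syn1, Cadps and Rab3b, and for Syt17 among the other genes, and ended none. Members called higher, 4 with all pools, ranged from 3 to 6 over the alternatives. They numbered 3 without CB pool 2, CB pool 3 or AM pool 2, against 10.9% to 11.6% of all genes. With the block they numbered 6, against 16.9%, and with no filter 5 of 40, against 7.87%. The Cplx1 share difference was 30.8 percentage points on recovered reads not divided by length, and on such reads the change of leader was lost for the complexins in 2 of 3 CB pools and for Rab3.

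Differences that were not called changed sign in some alternatives. Without 1 library, values ranged from -0.66 to 0.24 for Syt5, -0.64 to 0.17 for Snap25, -0.28 to 0.25 for Snap23, -0.33 to 0.23 for Stx1a, -0.29 to 0.0858 for Vamp1, -0.35 to 0.18 for Vamp2, -0.0115 to 0.40 for Rab3a, -0.0084 to 0.45 for Rab27a, -0.47 to 0.12 for Sytl4, -0.31 to 0.14 for Nsf and -0.19 to 0.17 for Napa. Snap23 was at -0.0202 (median-ratio scaling), -0.0201 (quantile scaling) and -0.51 with CB pool 2 and AM pool 3 both left out. Stx1a was at 0.0095 with a pseudocount of 0.1, 0.25 without those 2 pools and 0.00048 with voom, and Napa was at -0.0456 under median-ratio scaling. The cause was not tested. Amplification from the RNA's tail can leave long mRNAs under-read per kilobase, which bears on levels compared between genes. Genes near 1 RPKM rest on few reads.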

Other observations

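RefSeq promoter windows (the 250 bases before the start) were found for 31 of the 40 members, 41 windows in all, and some genes have several. The hypoxia response core (ACGTG or GCGTG, either strand) occurred in 23 of the 41 (56.1%), against 38.6% of all windows. CAGCACC occurred in 4 (9.76%, against 5.73%) and TGACGTCA in 1, that of Syn1. These are counts of letters in windows that share genes, with no test.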
